A study of Mus musculus with 6 samples.

Results

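The glycerol phosphate and triglyceride synthesis genes are the enzymes that build storage fat on a glycerol backbone. A list of 10 such genes was followed in the aorta of mice fed high fat or chow, and a gene's values were taken from every probe set that the platform annotation assigned to that gene alone. Of the 10, 8 had such a probe set, Gpd1, Gpd2, Gpam, Agpat3, Lpin1, Lpin2, Dgat1 and Dgat2, with 16 probe sets between them out of 22626 on the array, and Gyk and Agpat2 were not analysed here. Of the 16, 13 passed the filter on low signals, at least 1 for each of the 8 genes.

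In this pathway a 3-carbon sugar intermediate is reduced to glycerol 3-phosphate, which then receives fatty acyl chains in turn. The phosphate is taken off to give diacylglycerol, and a last acyl chain makes triglyceride, the content of lipid droplets. In brown adipocytes the pair of glycerol phosphate dehydrogenases also forms a shuttle that carries electrons from cytosolic NADH to the mitochondrial respiratory chain. White and brown adipocytes, liver and muscle are known for high activity of the pathway, and adipose tissue lies around the aorta.

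The study measured 6 pools on Affymetrix mouse arrays, 3 of high fat fed and 3 of regular chow fed mice, each with RNA of 3 aortas cleared of adventitia and of the fat around the vessel. All mice were C57BL/6J, an inbred strain, with no transgene, deletion or drug named in the labels, and male where a sex was given, which was not the case for high fat replicate 1. The high fat diet lasted 16 to 18 weeks and started when mice of high fat replicates 2 and 3 were 10 weeks old, which matches the 26 to 28 weeks of age of chow replicates 2 and 3. High fat replicate 1 was labelled as 16 to 20 weeks old, an age that is hard to reconcile with the length of the diet, and the label of chow replicate 1 gave no age, so that a difference in age between pools cannot be told apart from diet for every pool. The n is 3 pools per diet throughout, and the number of arrays limits the precision. Single values are given in the order of replicates 1, 2 and 3, high fat before chow.

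The values are MAS5 signals, a linear intensity per probe set that was scaled to a common trimmed mean on every array. Median signals were 58.4 to 66.6, and high fat replicate 2 correlated least with the other arrays, with a mean correlation of 0.953. Smooth muscle markers, which define the vessel wall, were high on all arrays, with Myh11 at 3212 to 3920. Adipocyte products were present on every array too, the hormone adiponectin (Adipoq) at 1559 to 2190 and the uncoupling protein Ucp1 at 2122 to 3664. In such bulk RNA, a change in the number of cells of a type and a change of RNA within each cell cannot be told apart.

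On average over the 8 genes, signals lay lower in chow replicates 1 and 2 than in the other 4 pools. Each of the 13 probe sets above the filter had a higher mean on high fat diet, with log2 fold changes from 0.10 to 1.10 and a median of 0.28, beside a median of -0.01 over all 13575 probe sets tested, of which 48.2% had a higher mean on high fat. None of the 13 passed an adjusted p of 0.05 in limma (adjusted p from 0.445 to 0.928), where 0.0737% of all probe sets did. At an unadjusted p of 0.05, 5 of the 13 passed, all higher on high fat, against 7.03% of all probe sets called in either direction and 3.92% called higher on high fat, and for 6 of the 13 every high fat array lay above every chow array, against 6.26% of all. Several probe sets measured 1 gene and the genes may vary together, so these shares describe the group and are no test of it.

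**Figure D1:**
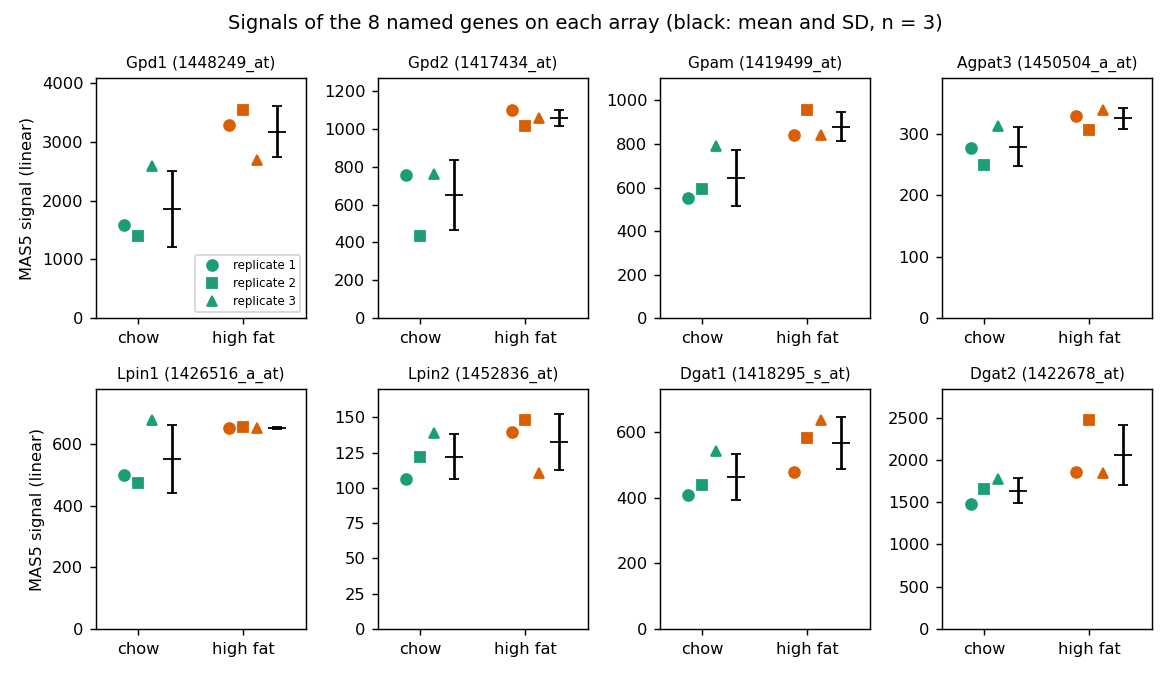
MAS5 signal on a linear scale (y axis) for the probe set of highest mean of each of the 8 genes, by diet (x axis). Symbols are replicates 1 to 3, and the black bar is the mean with its SD (n = 3). For Gpd1, Gpd2, Gpam and Dgat2 every high fat array lies above every chow array, and chow replicate 3 is the highest chow array in all 8 panels.

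Gpd1, the cytosolic glycerol 3-phosphate dehydrogenase that makes glycerol phosphate with NADH, had the smallest p of the group. Its brightest probe set (1448249_at) read 3277, 3545 and 2693 on high fat and 1587, 1396 and 2593 on chow. The diets did not overlap, but chow replicate 3 stood just under the lowest high fat array, far above the other chow pools. The means were 3172 ± 436 and 1859 ± 643 (SD, n = 3 each), 1.71 times as high on high fat, with a log2 fold change of 0.81 ± 0.21 (SE, 95% interval 0.35 to 1.27, adjusted p = 0.445, limma). Without chow replicate 3 the log2 fold change was 1.08 and this probe set passed (adjusted p = 0.0375, limma), in a comparison where 0.0884% of probe sets did. There, 8 of the 13 probe sets had an unadjusted p under 0.05, against 7.39% of all probe sets. Without high fat replicate 1 as well, Gpd1 1448249_at was again the 1 member that passed (log2 fold change 1.05, adjusted p = 0.0405 in limma), against 0.331% of probe sets, and 8 had an unadjusted p under 0.05, against 8.41%. Chow replicate 3 was the highest chow array for 12 of the 13 probe sets, Gpd1 1448249_at among them. Leaving it out therefore raises their fold changes, and these counts are no test of the group. The value of Gpd1 1448249_at was lower without either of the other chow pools, at 0.63 without chow replicate 2 (adjusted p = 0.894, limma) and 0.73 without chow replicate 1 (adjusted p = 0.642).

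The second Gpd1 probe set (1416204_at), designed on the same transcript sequence, read 1383, 1795 and 1282 on high fat and 826.4, 385 and 1008 on chow. It ordered the 6 arrays exactly as the first one did, from chow replicate 2 up to high fat replicate 2. Its log2 fold change was 1.10 ± 0.30 (SE, 95% interval 0.44 to 1.75, adjusted p = 0.455), and 0.69 without chow replicate 2. The other pair of Gpd1 probe sets, designed on another sequence, were dim and did not separate the diets. Probe set 1439396_x_at, whose suffix marks probes that can bind related transcripts, had 139.6 ± 19.2 on high fat and 130.3 ± 23.8 on chow (log2 fold change 0.10 ± 0.19, SE). Probe set 1456732_at had 22.4 ± 8.5 and 18.4 ± 10.6 and lay under the filter. All 4 Gpd1 probe sets had higher means on high fat, and the diets were separate on the brighter pair. The interval of 1439396_x_at, -0.31 to 0.52, overlapped that of 1448249_at.

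Gpd2, the mitochondrial glycerol 3-phosphate dehydrogenase that passes electrons to the respiratory chain, was measured by 1 probe set. Its signal was 1101, 1013 and 1055 on high fat and 757, 434.3 and 759.9 on chow. The high fat pools lay close together and above all chow pools, and chow replicate 2 was well under the other chow pools. The means were 1056 ± 43.9 and 650.4 ± 187 (SD, n = 3 each), with a log2 fold change of 0.74 ± 0.20 (SE, 95% interval 0.29 to 1.19, adjusted p = 0.466, limma). Without chow replicate 2 it was 0.47, the value that depended most on 1 array for this gene.

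Gpam, the mitochondrial glycerol 3-phosphate acyltransferase that adds the first acyl chain, read 840.7, 957.2 and 841 on high fat and 551.2, 591.6 and 789 on chow (1419499_at). The diets did not overlap, and chow replicate 3 again lay nearest to the high fat pools. The means were 879.6 ± 67.2 and 643.9 ± 127 (SD, n = 3 each), with a log2 fold change of 0.46 ± 0.16 (SE, 95% interval 0.11 to 0.81, adjusted p = 0.582, limma). A dimmer second probe set (1425834_a_at) had 118.9 ± 14.1 and 103.8 ± 22.5, overlapped between diets and had a log2 fold change of 0.20 ± 0.20 (SE), or 0.037 without chow replicate 2.

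Promoter sequence was held for 5 of the 8 genes in the RefSeq table used (GRCm38.p6), 9 windows in all. The windows of Gpd2 and Gpam are shown, since these are the genes in that table whose diets did not overlap. Each line gives the 250 bases before an annotated transcript start, 5′ to 3′ on the gene's strand, so it lies outside the transcript of that start, and the array does not say which start was used.
Gpd2 window 1, chr2:57237428-57237677, plus strand: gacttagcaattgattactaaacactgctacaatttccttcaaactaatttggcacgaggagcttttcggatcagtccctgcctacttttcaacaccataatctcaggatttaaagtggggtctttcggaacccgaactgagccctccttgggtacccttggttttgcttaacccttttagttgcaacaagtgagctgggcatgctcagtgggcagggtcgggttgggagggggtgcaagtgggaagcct
Gpd2 window 2, chr2:57238132-57238381, plus strand: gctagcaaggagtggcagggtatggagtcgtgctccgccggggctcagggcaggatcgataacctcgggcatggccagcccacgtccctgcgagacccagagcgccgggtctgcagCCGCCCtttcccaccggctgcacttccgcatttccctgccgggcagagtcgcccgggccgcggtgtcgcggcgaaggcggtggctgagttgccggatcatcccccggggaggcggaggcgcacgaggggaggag
Gpam window 1, chr19:55127239-55127488, minus strand: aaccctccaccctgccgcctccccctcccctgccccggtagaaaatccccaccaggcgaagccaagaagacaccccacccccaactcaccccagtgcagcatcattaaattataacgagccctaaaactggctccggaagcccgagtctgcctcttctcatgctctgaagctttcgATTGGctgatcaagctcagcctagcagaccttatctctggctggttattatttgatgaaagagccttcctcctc
Gpam window 2, chr19:55099478-55099727, minus strand: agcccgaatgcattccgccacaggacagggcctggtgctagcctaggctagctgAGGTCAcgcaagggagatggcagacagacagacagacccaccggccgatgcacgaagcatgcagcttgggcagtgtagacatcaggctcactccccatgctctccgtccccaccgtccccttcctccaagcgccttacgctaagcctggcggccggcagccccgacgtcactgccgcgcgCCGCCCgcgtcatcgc
Capitals mark exact matches on either strand to 6 motifs, the nuclear receptor half-site AGGTCA, its direct repeat with 1 base between the copies, the E-box CACGTG, the GC box GGGCGG, the CCAAT box CCAAT and the TATA box TATAAA. A half-site is part of any direct repeat and counts there too.

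Gpam window 2 held a half-site at 196 to 191 bases before the start and a GC box at 16 to 11 bases, and Gpam window 1 held a CCAAT box at 74 to 70 bases. Gpd2 window 2 held a GC box at 134 to 129 bases, and Gpd2 window 1 held none of the 6 motifs. Among the other members, the Lpin1 window had a half-site at 74 to 69 bases, and the Agpat3 window had no match. Of the 3 Lpin2 windows, the first had an E-box at 9 to 4 bases and a GC box at 24 to 19, the second a GC box at 79 to 74, and the third 3 CCAAT boxes, the nearest at 57 to 53. The half-site was found in 14.0% of all 32851 windows of this length, the GC box in 32.7%, the CCAAT box in 33.8%, the E-box in 6.02%, the TATA box in 12.4% and the direct repeat in 0.0335%. None of the 9 windows held the direct repeat or the TATA box. These are matches of letters, with no measurement of binding in this study.

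Agpat3, an acyltransferase that turns lysophosphatidate into phosphatidate, read 329.1, 306.9 and 339.3 on high fat and 276.2, 248.6 and 313.1 on chow. High fat replicate 2 lay below chow replicate 3, so the diets overlapped. The means were 325.1 ± 16.6 and 279.3 ± 32.4 (SD, n = 3 each), with a log2 fold change of 0.22 ± 0.15 (SE, 95% interval -0.11 to 0.55, adjusted p = 0.805, limma), and 0.14 without chow replicate 2.

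The lipins Lpin1 and Lpin2 remove the phosphate of phosphatidate to give diacylglycerol, and lipin 1 also acts in the nucleus as a coactivator of fatty acid oxidation genes. The brighter Lpin1 probe set (1426516_a_at) read 649.6, 653.1 and 650.6 on high fat and 498.6, 474.3 and 675.8 on chow. The high fat pools were nearly equal, and chow replicate 3 was the highest of the 6 arrays while the other chow pools were the lowest. Its log2 fold change was 0.26 ± 0.16 (SE, 95% interval -0.09 to 0.61, adjusted p = 0.780, limma), and it was 0.42 without chow replicate 3 and 0.16 without chow replicate 2. The second Lpin1 probe set (1418288_at) had 487.5 ± 74.7 and 441.2 ± 73.5 (SD, n = 3 each), differing by 0.14 ± 0.17 on the log2 scale (SE).

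Lpin2 had 1 probe set above the filter (1452836_at), at 139.6, 147.9 and 110.4 on high fat and 106.5, 121.6 and 138.7 on chow. The diets overlapped widely and the log2 fold change was 0.11 ± 0.18 (SE, 95% interval -0.29 to 0.51). The other Lpin2 probe sets were dim, 1452837_at at 21.6 to 57.5 and 1460290_at at 2.5 to 26.5 over the 6 arrays. Their log2 fold changes in a fit without the filter were 0.37 and -0.09, the latter the single probe set of the 16 with a lower value on high fat on the log2 scale.

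Dgat1 and Dgat2 are unrelated acyltransferases of the endoplasmic reticulum that each make triglyceride from diacylglycerol. Dgat2 was measured by a pair of probe sets of the same design sequence. The brighter (1422678_at) read 1861, 2467 and 1839 on high fat and 1478, 1651 and 1779 on chow, and the dimmer (1422677_at) 714.5, 935.1 and 753.2 against 582, 414 and 587.3. On both, the diets did not overlap and high fat replicate 2 was the highest array. The log2 fold changes were 0.32 ± 0.14 (SE, 95% interval -0.0011 to 0.64, adjusted p = 0.707, limma) for the brighter and 0.60 ± 0.17 (SE, 95% interval 0.22 to 0.99, adjusted p = 0.482) for the dimmer. Without high fat replicate 2, that of the brighter was 0.18 (adjusted p = 0.999, limma).

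Dgat1, read by a probe set whose suffix (_s_at) marks probes shared by several transcripts, had 480.7, 583.7 and 636.9 on high fat and 410.3, 441 and 543.4 on chow. High fat replicate 1 lay below chow replicate 3. The means were 567.1 ± 79.4 and 464.9 ± 69.7 (SD, n = 3 each), with a log2 fold change of 0.28 ± 0.16 (SE, 95% interval -0.08 to 0.64, adjusted p = 0.766, limma).

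**Figure D2:**
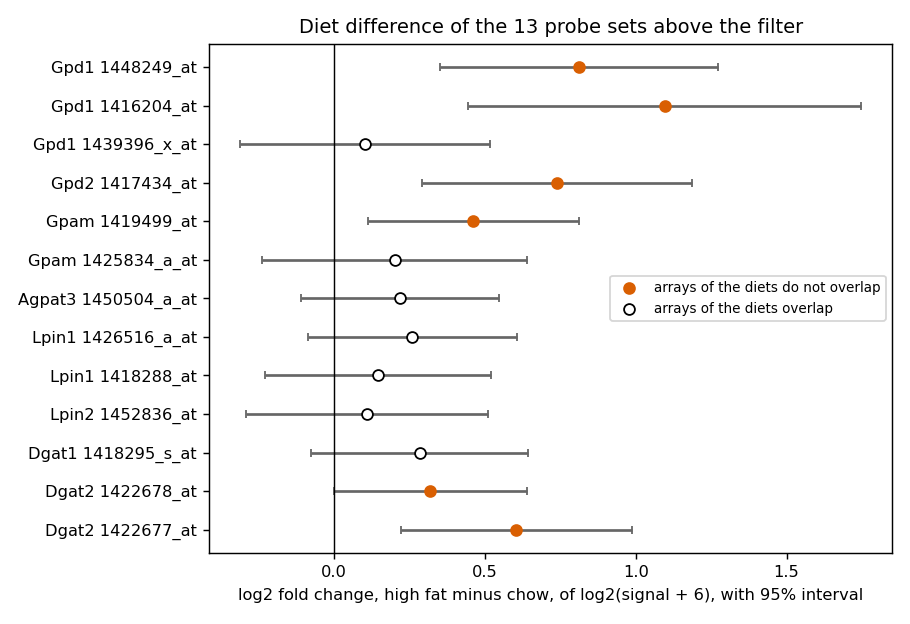
Log2 fold change of high fat over chow (x axis, on the log2(signal + 6) scale) with its 95% interval from limma for the 13 probe sets above the filter (y axis). Filled points mark the 6 probe sets whose diets do not overlap. All points lie above 0, from 0.10 to 1.10, and 5 of the intervals exclude 0.

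Whether genes of like role differed in their response was asked within each array, as the log2 difference of the brightest probe sets of 2 genes. This difference changed from chow to high fat by 0.07 ± 0.26 (SE) for Gpd1 minus Gpd2, by 0.15 ± 0.16 for Lpin1 minus Lpin2 and by 0.03 ± 0.17 for Dgat2 minus Dgat1. Exact two-sided permutation tests gave p = 0.8, p = 0.5 and p = 0.9, and adjusted p = 0.9 for each of the 3 pairs, where 3 pools against 3 cannot give a p below 0.1. A p of this size does not show that the genes of a pair responded alike, and the errors leave room for unequal changes in either direction for each pair.

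The chow pools differed among themselves in the same way for most of the group. Chow replicate 3 was the highest chow array for 12 of the 13 probe sets, and the lowest of the 6 arrays was chow replicate 2 for 8 probe sets and chow replicate 1 for 5. High fat replicate 2 was the highest of the 6 arrays for 7 probe sets. As a mean over the 8 genes, each centred on its own mean over the arrays, the log2 level was 0.17, 0.28 and 0.15 on high fat and -0.29, -0.37 and 0.07 on chow.

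Adipocyte markers shared the low values of chow replicates 1 and 2. As centred means, neither the white nor the brown list kept the order of the other 4 pools, but the summed brown signal did. The mean of 11 white and general adipocyte markers, centred in the same way, was 0.25, 0.17 and 0.03 on high fat and -0.23, -0.36 and 0.14 on chow. Their summed signal was 8595 to 9079 on high fat and 6906 to 9601 on chow, with chow replicate 3 the highest of the 6 arrays. Of the 9 above the filter, 8 had higher means on high fat and 1, resistin (Retn), fell (adjusted p = 0.0435, limma). Leptin (Lep) lay under the filter but is part of the mean of 11, which is also the covariate used below. It read 111.4, 66.7 and 56.2 on high fat and 7.8, 16 and 28.2 on chow. Its log2 fold change in a fit without the filter, 1.89, was the largest rise of the list. Adiponectin had 1862 ± 41.1 on high fat and 1794 ± 345 on chow, a log2 fold change of 0.07 ± 0.14 (SE), and the hormone-sensitive lipase Lipe had 723.5 ± 90.2 and 501.8 ± 111.9, a log2 fold change of 0.54 ± 0.18.

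The mean of the 10 brown adipocyte markers, centred likewise and also used as a covariate below, was -0.08, 0.45 and 0.29 on high fat and -0.28, -0.37 and -0.02 on chow. High fat replicate 1 thus lay below chow replicate 3. The markers did not share this order. Ucp1, Cidea, Ppara, Cox7a1, Cox8b and Elovl3 were higher on high fat replicate 1 than on chow replicate 3, and Dio2, Ppargc1a, Slc27a2 and Kcnk3 were lower. Kcnk3 read 24.5, 163.9 and 130.6 on high fat and 97.5, 112.5 and 111.5 on chow. The summed signal of the 10 markers was 10825 to 13117 on high fat and 7038 to 9281 on chow and did not overlap. It ordered the 6 arrays as the summed signal of the 8 pathway genes did. Of the 10, 8 had higher means on high fat, and the median log2 fold change was 0.50, beside 0.30 for the 8 genes at 1 probe set each. In limma, 6 of the 10 and 3 of the 8 genes had an unadjusted p under 0.05 and were higher on high fat. Of all probe sets, 3.92% were. The diets did not overlap, with high fat above, for 5 of the 10 and 4 of the 8, against 6.26% of all. Ucp1 had 3480 ± 283 and 2479 ± 317 (SD, n = 3 each). On the log2 scale Ucp1 was higher on high fat by 0.49 ± 0.13 (SE, adjusted p = 0.445, limma), and its diets did not overlap. No white or brown marker was at 0 on any array. Macrophage markers summed to 2835 to 4842 on high fat and 2184 to 2768 on chow. Cardiac muscle markers summed to 1102 to 8916 and 1007 to 4634, and were lowest in chow replicate 3 and high fat replicate 1, so they did not follow the order of the pathway genes. Smooth muscle markers summed to 26782 to 27552 on high fat and 26031 to 32270 on chow, skeletal muscle markers to 375 to 686 and 462 to 1159, endothelial markers to 1710 to 2017 and 1522 to 1656, and adventitial fibroblast markers to 10587 to 11048 and 11470 to 11984. The part of macrophage, endothelial and fibroblast RNA in the values of the pathway genes was not tested.

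**Figure D3:**
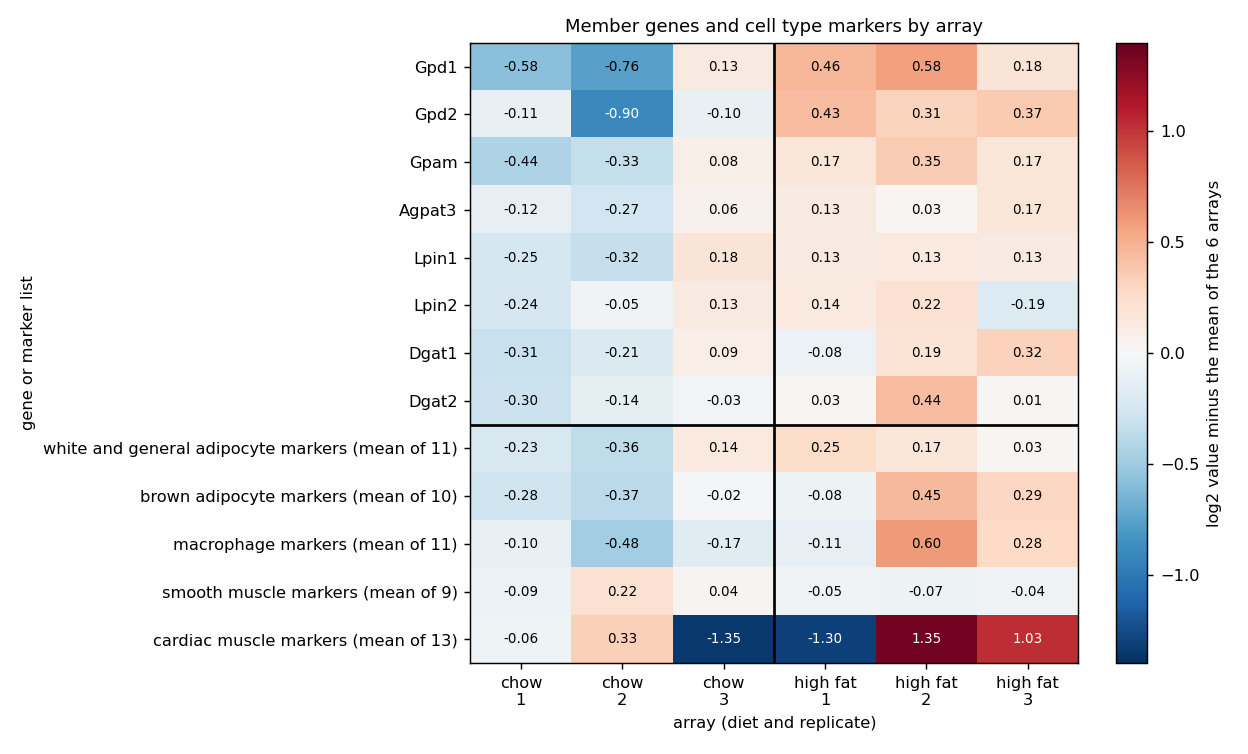
Log2 value minus the mean of the 6 arrays (colour and printed number) for the 8 genes and for the mean of 5 marker lists (y axis) on each array (x axis, diet and replicate). Chow replicates 1 and 2 are below 0 in all 8 gene rows and in both adipocyte rows, and chow replicate 3 is the highest chow array in each of these rows.

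The fit was repeated with the mean of the white and general adipocyte markers as a covariate, a setting chosen after the data were seen. The log2 fold change was then 0.29 ± 0.17 (SE) for the brightest Gpd1 probe set, 0.42 ± 0.24 for Gpd2, 0.22 ± 0.20 for Gpam and 0.41 ± 0.23 for the dimmer Dgat2 probe set. For the brighter Dgat2 probe set it was 0.22 ± 0.20. None of the 13 probe sets had an unadjusted p under 0.05 in limma, against 3.68% of all probe sets, and the 13 log2 fold changes ran from -0.15 to 0.48. With the brown adipocyte markers as a covariate the values were 0.44 ± 0.30, 0.55 ± 0.32, 0.18 ± 0.23 and 0.25 ± 0.24, and 0.06 ± 0.21 for the brighter Dgat2 probe set. Again 0 of 13 were under an unadjusted p of 0.05, against 2.67% of all probe sets. Both covariates differ between diets on these arrays, so part of any diet effect is taken up by them, and the share of adipocyte RNA and the diet cannot be told apart here. With the cardiac markers as a covariate, 5 of the 13 had an unadjusted p under 0.05, against 5.97% of all probe sets.

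**Figure D4:**
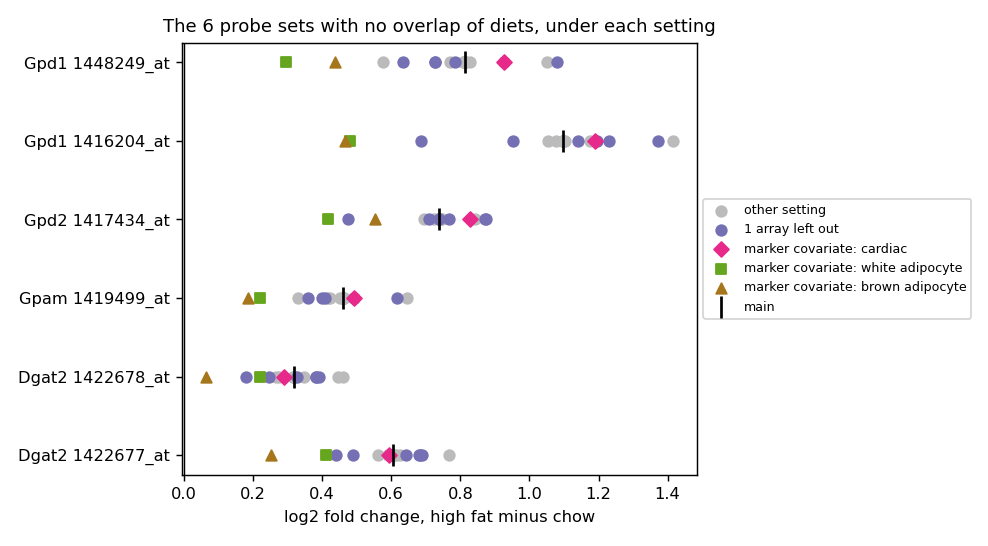
Log2 fold change of high fat over chow (x axis) for the 6 probe sets whose diets do not overlap (y axis). The black bar is the value on all arrays, purple points leave out 1 array each, diamonds, squares and triangles add a marker covariate, and grey points are the other settings. All points lie above 0, and the adipocyte covariates give the lowest values for Gpd1, from 0.29 to 0.48.

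The other genes of glycerolipid synthesis did not share one direction. Of 22 further genes of the synthesis of glycerol phosphate and triglyceride, 15 were named on the array and 11 passed the filter, of which 6 had higher and 5 lower means on high fat, with a median log2 fold change of 0.09. None passed an adjusted p of 0.05 in limma. The unadjusted p was under 0.05 for 1 gene of the 11, against 7.03% of all probe sets in either direction and 3.92% higher on high fat. That gene was Agpat1, another lysophosphatidate acyltransferase, at 178.6, 187 and 176.1 on high fat and 128.6, 145.1 and 127.7 on chow (log2 fold change 0.42 ± 0.15, SE, adjusted p = 0.594). Its diets did not overlap, and its pools of 1 diet lay closer together than those of Gpd1. Acsl5, an acyl-CoA synthetase, had a log2 fold change of 0.35 ± 0.21, Bscl2, the lipid droplet protein seipin, 0.18 ± 0.13 and Plpp2, a lipid phosphate phosphatase, 0.19 ± 0.16.

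Of 7 genes of glycerol transport and of glycerol phosphate supply from pyruvate, 5 passed the filter. On the log2 scale, 4 had higher and 1 had lower means on high fat. Among the 4, Pck1 was level, at 648.9 ± 130.7 on high fat and 654.3 ± 182.4 on chow (log2 fold change 0.0016 ± 0.21, SE). Tpi1, the triose phosphate isomerase that makes the substrate of Gpd1, had 1146 ± 60.2 and 951.6 ± 31.3 (SD, n = 3 each), and its diets did not overlap (log2 fold change 0.27 ± 0.12, SE, adjusted p = 0.706, limma). Its probe set carries the suffix _x_at. Pyruvate carboxylase (Pcx) had 430.5 ± 24.0 and 525.5 ± 37.2, a log2 fold change of -0.28 ± 0.13, with every chow array above every high fat array. The glycerol channel Aqp7 was dim, at 53.8 to 63.9 on high fat and 8.3 to 55.8 on chow. Pck2, a mitochondrial phosphoenolpyruvate carboxykinase, had a log2 fold change of 0.01 ± 0.17.

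Phosphatidate and diacylglycerol also feed phospholipid synthesis, and 13 of 19 such genes were measured above the filter, 9 with higher and 4 with lower means on high fat and a median log2 fold change of 0.10. None passed an adjusted p of 0.05 in limma. The unadjusted p was under 0.05 for 2 genes of the 13, against 7.03% of all probe sets in either direction and 3.92% higher on high fat. Choline kinase beta (Chkb) had 296, 323.8 and 367.4 on high fat and 183.6, 214.7 and 260.6 on chow, which amounts to 0.58 ± 0.17 on the log2 scale (SE, adjusted p = 0.506). The phosphatidylserine synthase Ptdss2 had 532 ± 70.0 and 398.3 ± 45.9 (SD, n = 3 each), and the choline phosphotransferase Chpt1 and the ethanolamine pathway enzyme Pcyt2 had log2 fold changes of 0.35 ± 0.17 and 0.46 ± 0.26 with overlapping arrays. Of the diacylglycerol kinases, which turn diacylglycerol back into phosphatidate, 3 of 10 passed the filter, with log2 fold changes of 0.21 for Dgka, 0.08 for Dgkz and -0.18 for Dgke and 0 under an unadjusted p of 0.05.

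Likeness of profile was measured as the root mean square difference of centred log2 values over the 6 arrays, among 8217 other named genes above the filter. Closest to Gpd1 were Cox7a1, a respiratory chain subunit of muscle and brown fat, at 0.10, then Plekha4 at 0.12, the carbonic anhydrase Car9 at 0.12, the phosphofructokinase Pfkl at 0.14 and Ptprv at 0.14. Cox7a1 read 1017, 971.6 and 844.2 on high fat and 477.6, 405 and 676.7 on chow, with chow replicate 3 above the other chow pools as for Gpd1. Closest to Gpd2 were the lipid droplet protein Plin5 at 0.13, Aspa at 0.14, the glycogen synthase Gys2 at 0.15, the fatty acid receptor Ppara at 0.15 and Deptor at 0.16. Closest to Gpam were Uqcrc2, a subunit of respiratory complex III, at 0.05, then Cluh at 0.05, Retsat at 0.06, Dlst of the tricarboxylic acid cycle at 0.06 and Arvcf at 0.06. Ppara and Cox7a1 are also in the brown adipocyte marker list. Profiles over 6 arrays leave many genes nearly tied, and the order among them was not tested.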

How the data were processed

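The deposited table held 1 MAS5 signal intensity per probe set and array on a linear scale, MAS5 being the tool named in the submitters' processing notes, with its version and settings not given in the sources used here. Per the labels' protocols, 5 µg of RNA entered labelling. The 2% trimmed mean was equal on all arrays, so the scaling of the deposited values was left as it was. Detection calls were not used. Genes were named from the platform annotation, and 64 control probe sets were left out. Signals were transformed as log2(signal + 6), the pseudocount being the 10th percentile of all signals, so fold changes of low genes are understated. The 13575 probe sets with a mean above a signal of 40.7 (the 40th percentile) were tested. The diet contrast was fitted in R 4.3.3 with limma 3.58.1 (lmFit, eBayes with a variance trend, two-sided, Benjamini-Hochberg over all probe sets kept, threshold 0.05), and the script was tested on simulated data. A gene with several probe sets was represented, where 1 was needed, by that of highest mean. Of 4 planned gene pairs, that with Agpat2 could not be compared. Named genes were all members, up to 4 genes of smallest p per further list, up to 3 per marker list with Ucp1 and Adipoq, and 5 nearest profiles for the 3 members of smallest p. Myh11, Pck1, Lep, Kcnk3 and the rest of the brown adipocyte markers were added after their values were seen. The members, lists and tests were chosen with earlier results of these data known. The spread behind each p-value is that between pools. Alternatives were other pseudocounts, filters, scalings and variance models, array weights, a replicate block, single arrays left out, gene-level values and marker covariates. Python 3.11.15 and matplotlib 3.10.9 drew the figures.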

Additional observations from a re-analysis of the deposited data

How the results depend on the processing

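Over 22 other settings, 267 of 275 log2 fold changes of the 13 probe sets kept their direction. The exceptions were Gpd1 1439396_x_at (-0.025 to 0.27 when arrays were left out, below 0 when chow replicate 2 or, at -0.0031, high fat replicate 2 was the one, and -0.15 or -0.22 with the white or brown adipocyte covariate), Lpin1 1418288_at (-0.094) and Lpin2 1452836_at (-0.091) with the white covariate, and Dgat1 (-0.043) and Gpam 1425834_a_at (-0.053) with the brown one. The count of members past an adjusted p of 0.05 was 0 to 1 when single arrays were left out, the 1 being Gpd1 1448249_at without chow replicate 3, and 1 without both high fat replicate 1 and chow replicate 3. The count under an unadjusted p of 0.05 was 4 to 8 without single arrays, the 8 being without chow replicate 3 (7.39% of all probe sets). It was 8 without both of those arrays (8.41%) and 0 with the white or brown adipocyte covariate (3.68% and 2.67%). The share was not counted for the other single arrays left out. The median was 0.25 to 0.40 without single arrays and 0.45 without both. Over all probe sets, the 10 past an adjusted p of 0.05 became 6 with the cardiac covariate, 6 without a filter, 6 when the probe sets of a gene were averaged, 5 without the variance trend, 0 with the brown covariate (363 under an unadjusted p of 0.05 in limma), 45 without both arrays, and 5 to 16 without single arrays, with 5 when replicate 2 of either diet was omitted and 16 when high fat replicate 1 was. The change in Gpd1 minus Gpd2 was -0.14 to 0.21 without single arrays and -0.16 when the probe sets of a gene were averaged, in Dgat2 minus Dgat1 -0.078 to 0.20 and -0.07 without both arrays, and in Lpin1 minus Lpin2 0.03 to 0.23. The cause was not tested. With the replicate number as a block, 5 probe sets passed over all and 0 members did. There, 6 members had an unadjusted p under 0.05 in limma, with the share of all probe sets not counted. The pair changes under sign flips within replicate numbers were 0.07, 0.15 and 0.03. Deviations of same-numbered pools correlated at 0.03, 0.17 and -0.11, and those of other pools at -0.16 to 0.14. Not every pool correlated best with its own number. With 3 pools per diet these values cannot decide whether the numbers pair the samples, and the main fit did not pair them. The dim Gpd1 and Lpin2 probe sets cannot be told from background without detection calls.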
